A study of Mus musculus with 8 samples.

Results

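Light-chain CDR3 sequences shorter or longer than 11 residues made up 439 of 3130 complete light-chain clonotypes (14.0%) in sorted mouse pro-B cells. A clonotype is a distinct CDR3 nucleotide sequence in 1 sample, and a complete one begins at the conserved cysteine and ends at the conserved phenylalanine, both counted in the length. The 11-residue length held 2691 clonotypes (86.0%), 255 clonotypes had 10 residues or fewer and 184 had 12 residues or more. Members were chosen by this length alone, without regard to group. They are 379 distinct sequences, because some occur in more than 1 sample.

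The samples were 4 controls and 4 Setd2 knockouts, each the RNA of pro-B cells (B220+Cd43+IgM-CD25-) from bone marrow of mice aged 8 weeks with no treatment. SETD2 is the methyltransferase that places the third methyl group on lysine 36 of histone H3. The labels give neither the strain, the knockout allele nor the driver of any Cre. No label ties a replicate number to an animal, so the p-values rest on variation from sample to sample, some of which may be technical.

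An antibody light chain is joined from a V and a J segment, and the CDR3 is the loop that spans the join and helps to contact antigen. Nucleases trim both ends before they are ligated, and the enzyme terminal transferase can add bases that neither segment encodes. In mouse kappa chains the loop usually carries a proline near its end, encoded by the last bases of the V segment. Kappa genes normally rearrange after the heavy chain, mostly once cells have left the pro-B stage.

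Reads on the light-chain locus ran from 5956 to 144978 per sample, and complete clonotypes from 82 in knockout 3 to 727 in control 2. Reads of the switched heavy-chain constant genes IGHG1, IGHG2B, IGHG2C, IGHG3, IGHA and IGHE, which mark B cells past the pro-B stage, made up 51.0% to 57.6% of constant-gene reads in controls and 6.69% to 44.2% in knockouts. None of the 6 genes was at 0 in any sample. IGHD took 0.651% to 0.977% in controls and 0.467% to 0.759% in knockouts. Pro-B marker genes outside the immunoglobulin loci were not analysed here. In bulk RNA, fewer cells and less RNA per cell cannot be told apart.

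The sequences below are shown because members differ in the germline V end they carry. They are the V ends from the cysteine codon onward, read 5′ to 3′ from the transcripts of GENCODE M21 (build GRCm38, the same assembly as mm10), with codon 8 in capitals. In most kappa V genes, 67 of 100, this end has 26 bases, as in IGKV12-46, which gave one of the most shared 11-residue sequences.
IGKV12-46: tgtcaacatttttggggtactCCTcc
IGKV1-110: tgctctcaaagtacacatgttCCTcc
IGKV10-96: tgccaacagggtaatacgcttCCTcc
IGKV5-48: tgtcaacaaagtaatagctggCCAac
IGKV19-93: tgtctacagtatgataatcttCTAcc
IGKV4-80: tgccatcagtggagtagttatCCA
IGKV8-21: tgcaagcaatcttataatcttCC
IGKV8-27: tgtcatcaatacctctcctcg
IGKV4-59: tgccagcagtggagtagtaacCCAccca
CCT and CCA encode proline, and CTA in IGKV19-93 encodes leucine. IGKV8-27 ends before codon 8 and IGKV8-21 inside it. All lie in the kappa locus on chromosome 6. In that annotation IGKV19-93 spans 68736297 to 68736780, IGKV8-21 spans 70314895 to 70315472 and IGKV8-27 spans 70171809 to 70172270, all on the minus strand, and the printed bases close the V-coding exon.

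The starts of the 4 kappa J genes counted here, up to the phenylalanine codon, come from the same source.
IGKJ1: GTGGACGTTC
IGKJ2: TGTACACGTTC
IGKJ4: ATTCACGTTC
IGKJ5: GCTCACGTTC
A whole V end of 26 bases and a J start of 10 bases give 36 bases, which is 12 residues. A join of 11 residues has 33 bases, so 3 bases must be lost from such a pair when none is added.

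The 4 shorter sequences found in most samples, 5 each, are printed with the bases that match the J start in capitals.
IGKV8-21 to IGKJ2: tgcaagcaatcttataatcTGTACACGTTC
IGKV8-27 to IGKJ2: tgtcatcaatacctctcctcGTACACGTTC
IGKV19-93 to IGKJ2: tgtctacagtatgataatcTGTACACGTTC
IGKV8-21 to IGKJ1: tgcaagcaatcttataatcttcGGACGTTC
Each had 10 residues, no mismatch to its germline V end, and was found in all 4 controls and 1 knockout. J genes are named here by the bases after the CDR3, while the deposited J call of the last of the 4 was IGKJ2. The first was covered by 10, 5, 6 and 4 CDR3-spanning reads in controls 1 to 4 and by 4 in knockout 3. The second had 19 of its 26 reads in control 2. The 4 longer sequences found in most samples are joins in which the whole V end was kept.
IGKV5-48 to IGKJ2: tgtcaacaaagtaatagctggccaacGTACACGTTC
IGKV1-110 to IGKJ2: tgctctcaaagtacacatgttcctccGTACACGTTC
IGKV10-96 to IGKJ1: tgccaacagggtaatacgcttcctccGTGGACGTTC
IGKV5-43 or IGKV5-45 to IGKJ2: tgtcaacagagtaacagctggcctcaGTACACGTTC
The IGKV5-48 join was found in 3 controls and 1 knockout with 1 or 2 reads each, and the other 3 were found in 3 samples. For the last of the 4 the deposited J call was IGKJ1 in control 4. The best-covered shorter sequence of any knockout and the best-covered longer one of any control were each found in 1 sample, with 16 reads in knockout 4 and 11 in control 2.
IGKV1-110 to IGKJ1, shorter: tgctctcaaagtacacatgttccGACGTTC
IGKV1-110 to IGKJ1, longer: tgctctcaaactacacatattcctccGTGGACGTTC
The shorter one lacked 3 bases of the V end and 3 of the J start, and the longer one kept both whole with 2 mismatches in the V end. For comparison, these 11-residue sequences occurred in all 8 samples.
IGKV1-117 to IGKJ4: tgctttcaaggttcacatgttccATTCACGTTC
IGKV12-46 to IGKJ1: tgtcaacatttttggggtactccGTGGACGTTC
Both kept 23 of the 26 bases of their V end.

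Nearly all members were 1 codon away from the usual length. CDR3 of 10 residues numbered 244 and of 12 residues 163, while 9 residues occurred 7 times, 13 residues 19 times, and 6, 8, 14 and 16 residues 2, 2, 1 and 1 times. Those next to the usual length were present in every sample. The 6-residue sequences both came from knockout 2 and had 1 read each. The 16-residue sequence of control 3 had 2 reads and holds the codons that precede the conserved cysteine inside it, with that cysteine at base 14, in another frame than the start called by the assembly. The same codons lay inside 3 of 184 longer, 0 of 255 shorter and 1 of 2691 usual sequences.

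Setd2 knockout and control samples did not differ detectably in the share of clonotypes that were short or long. The shorter share was 7.36%, 9.49%, 7.0% and 8.13% across controls 1 to 4 (mean 8.00% ± 1.10, SD, n = 4). It was 9.03%, 8.28%, 8.54% and 7.66% across knockouts 1 to 4 (mean 8.38% ± 0.569, SD, n = 4). The ranges overlapped, and the difference of 0.379 percentage points had p = 0.600 in the two-sided exact permutation test over 70 arrangements (Benjamini-Hochberg 0.914 over 8 readouts). The longer share was 4.46%, 5.91%, 5.52% and 5.05% across controls (5.24% ± 0.629, SD, n = 4). It was 5.56%, 4.46%, 4.88% and 13.3% across knockouts (7.05% ± 4.2, SD, n = 4). Knockout 4 lay above every other sample, with a 95% Wilson interval of 9.64% to 18.1%, which like every such interval here covers counting error only. The remaining knockouts lay among the controls. The exact permutation test gave p = 0.714 (Benjamini-Hochberg 0.914), and without knockout 4 the difference was -0.27 percentage points.

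**Figure D1:**
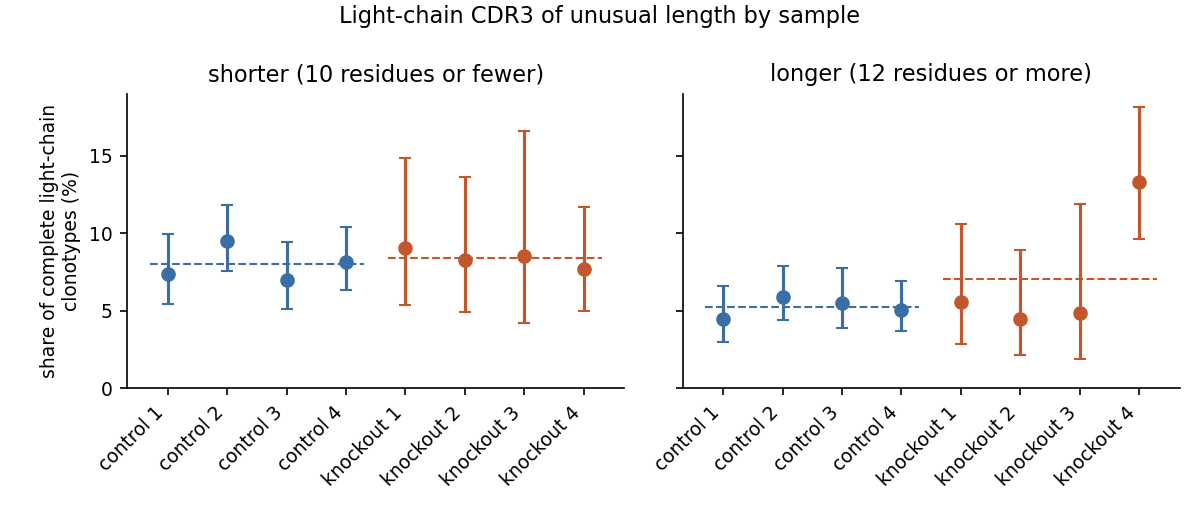
Share of complete light-chain clonotypes (%) that were shorter (left) or longer (right) than 11 residues in each sample, with 95% Wilson intervals and dashed group means. The shorter share lies between 7.0% and 9.49% in all samples, and the longer share of knockout 4 (13.3%) stands above the other 7.

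No difference in read shares passed either. CDR3-spanning reads, which are the reads the assembly credits to a clonotype's CDR3, gave a shorter share of 7.22% ± 2.26 in controls and 7.14% ± 1.57 in knockouts (SD, n = 4 each; exact permutation p = 0.943, adjusted 0.943). The longer read share was 4.42% ± 0.773 in controls and 5.83% ± 3.81 in knockouts (SD, n = 4 each; exact permutation p = 0.600, adjusted 0.914). Without knockout 4 this difference was -0.27 percentage points too. Per clonotype, members were covered by few reads. Of shorter clonotypes 40.4% and of longer ones 40.2% had a single read, against 29.6% of 11-residue ones, and the median was 2 reads in all 3 classes. The log2 ratio of reads per shorter clonotype to reads per 11-residue clonotype was -0.22 ± 0.31 in controls and -0.29 ± 0.41 in knockouts (SD, n = 4 each; exact permutation p = 0.800, adjusted 0.914). For longer clonotypes it was -0.28 ± 0.28 and -0.41 ± 0.62 (SD, n = 4 each; exact permutation p = 0.743, adjusted 0.914).

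Shorter clonotypes were fewer in every knockout than in any control. Controls 1 to 4 had 38, 69, 38 and 58 of them, and knockouts 1 to 4 had 13, 13, 7 and 19, a log2 difference of -2.0, or 4.0-fold. This was the 1 of 8 readouts called at an exact permutation p below 0.05 (12.5%), with p = 0.0286, the smallest the design allows, and an adjusted p of 0.229. The controls had 23, 43, 30 and 36 longer clonotypes and the knockouts 8, 7, 4 and 33, a log2 difference of -1.79 (exact permutation p = 0.0857, adjusted 0.343). Knockout 4 overlapped the controls here. The 11-residue clonotypes were also fewer, 455 to 619 against 71 to 196, a log2 difference of -2.11. Per 1000000 light-chain locus reads, the log2 difference in shorter clonotypes was -0.66 (exact permutation p = 0.429). On that scale knockout 3, with 7 shorter clonotypes on 5956 locus reads, lay above every other sample. Knockouts 1, 2 and 4 still lay below every control. Light-chain locus reads were lower in knockouts 1 to 3, and the switched constant share in all 4 knockouts, than in any control, and their part in these numbers was not tested.

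V families differed between lengths within samples. For this test the share of a family among shorter or longer clonotypes was compared with its share among 11-residue clonotypes of the same sample, by sign flips over the 8 samples, with Benjamini-Hochberg adjustment over all families and J genes of a length class. Families were first taken from the V genes listed in the deposited tables, which name a single family for 128 of 255 shorter and 99 of 184 longer clonotypes. No feature of 19 passed for shorter clonotypes (0%), with 5 at an unadjusted p under 0.05. For longer clonotypes 3 of 19 passed (15.8%), all lower in 8 of 8 samples: IGKV6, IGKV12 and IGKV17. IGKV6 was the single listed family of 0 of 99 longer clonotypes and of 11.9% ± 4.53 of 11-residue ones (SD, n = 8). This 0 describes the listing, since the germline match described next placed 10 of 170 longer clonotypes in IGKV6. IGKV12 took 1.74% ± 3.30 of longer and 13.4% ± 4.43 of 11-residue clonotypes, and IGKV17 took 0 of 99 and 3.11% ± 1.91 (exact permutation p = 0.00781 and adjusted 0.0495 for each). For IGKV17 the lower sign carries little, because with 2 to 25 listed longer clonotypes a sample its mean 11-residue share amounts to less than 1 clonotype in each, and a count of 0 of 99 allows up to 3.03%. For IGKV6 and IGKV12 the lower sign likewise carries little in knockouts 1 to 3. With 5, 4 and 2 listed longer clonotypes there, the 11-residue share of either family amounts to less than 1 clonotype in each. With any 1 sample left out 0 features passed, since 7 samples raise the smallest p.

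Matching each CDR3 to the germline V ends placed more members in a family, 224 shorter and 170 longer, and this was added after the tables were seen. Of shorter clonotypes matched to IGKV8, 52 of 56 had no single family in the deposited list, and 48 had an IGKV8 gene among several. Where both sources named a family they gave the same one for 96.8% of 1756 clonotypes. By this match 7 of 20 features passed for shorter clonotypes (35%), 2 higher and 5 lower.

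IGKV8 had the largest difference among shorter CDR3 by the germline match, and IGKV19 by the listed families. Of matched shorter clonotypes it took 14.7%, 21.3%, 31.4% and 23.5% across controls 1 to 4. The values were 18.2%, 30%, 28.6% and 53.3% across knockouts 1 to 4, against 2.42% to 5.74% of 11-residue clonotypes. IGKV8 was higher in every sample, by 23.2 ± 11.9 percentage points (SD, n = 8; exact permutation p = 0.00781, adjusted 0.0391). Of the 56 shorter clonotypes matched to IGKV8, 30 matched IGKV8-21 and 18 matched IGKV8-27. In knockout 2 the 3 IGKV8 ones all matched IGKV8-30, a gene with 7 shorter of 87 clonotypes (8.05%) over all samples. IGKV19 took 12.3% ± 5.79 of shorter and 0.587% ± 0.747 of 11-residue clonotypes and was higher in 7 of 8 samples (SD, n = 8; exact permutation p = 0.0156, adjusted 0.0446). Knockout 2 had none among its 10 matched shorter clonotypes. By the listed families IGKV19 was 17.2 points higher, in 7 of 8 samples (exact permutation, adjusted p = 0.0742), and IGKV8 4.13 points higher, in 3 of 8 (unadjusted exact permutation p = 0.516). Without knockout 4, IGKV8 was still 19.6 and IGKV19 11.8 percentage points higher, with adjusted p of 0.0521 and 0.0625 over 7 samples, so that 0 features passed.

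The families lower among shorter CDR3 were IGKV1, IGKV3, IGKV4, IGKV9 and IGKV15. IGKV1 took 6.58% of shorter against 14.7% of 11-residue clonotypes and IGKV3 0.573% against 6.22%, both lower in 8 of 8 samples (exact permutation, adjusted p = 0.0391). IGKV9 was matched to 0 of 224 shorter clonotypes, which allows up to 1.34%, and to 2.09% of 11-residue ones (exact permutation, adjusted p = 0.0391). Its lower sign carries little, because that share amounts to about 1 clonotype or fewer among the matched shorter ones of any sample. For IGKV3 the same holds in the knockouts, with 7 to 15 matched shorter clonotypes each. Over all samples IGKV3 was matched to 2 of 224 shorter and 150 of 2399 usual clonotypes. IGKV4 took 13.6% against 19.3%, lower in 7 of 8 samples, and IGKV15 took 0.205% against 1.44%, lower in 7 (exact permutation, adjusted p = 0.0446 for both). For IGKV15 the lower sign carries little, because its mean 11-residue share amounts to less than 1 clonotype among the 7 to 61 matched shorter ones of a sample, and over all samples the counts were 1 of 224 shorter and 37 of 2399 usual. The listed families put IGKV4 1.44 percentage points higher instead, so its direction depends on the source of the family. Shares of a length class have a common total, so higher shares of some families lower those of others. IGKV8 and IGKV19 took means of 27.6% and 12.3% of shorter against 4.40% and 0.587% of 11-residue clonotypes. Of all matched IGKV4 clonotypes 5.61% were shorter, against 3.25% of IGKV1, 1.27% of IGKV3 and 2.56% of IGKV15. Whether the lower families stay lower with IGKV8 and IGKV19 left out was not tested.

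Among longer CDR3, no feature of 20 passed by the germline match (0%), while 11 had an unadjusted p under 0.05. Of matched longer clonotypes IGKV4 took 36.4%, 16.7%, 18.5% and 44.4% across controls 1 to 4. The values were 25%, 71.4%, 50% and 69.7% across knockouts 1 to 4, against a mean of 19.3% at 11 residues. It was higher in 7 of 8 samples, with an adjusted p of 0.0781 in the exact permutation test. IGKV1 took 25.5% ± 16.8 of longer and 14.7% ± 1.95 of 11-residue clonotypes (SD, n = 8; exact permutation, adjusted p = 0.108). IGKV5 took 14.0% ± 11.2 and 7.32% ± 2.39, higher in 6 of 8 samples (SD, n = 8; exact permutation, adjusted p = 0.234). By the listed families IGKV5 was 7.54 points higher, also in 6 of 8 (exact permutation, adjusted p = 0.307). IGKV6, IGKV12 and IGKV17 were again lower on average, with adjusted p of 0.0781, 0.0781 and 0.0521.

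**Figure D2:**
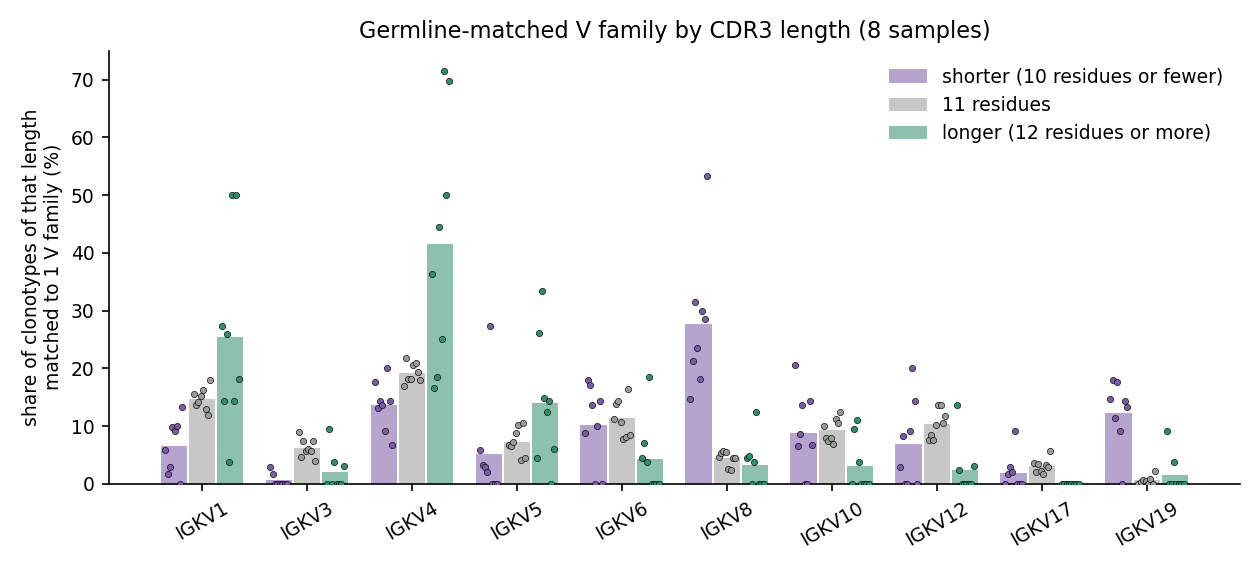
Share of clonotypes of each length (%) matched to a germline V family, as bars for the mean of 8 samples and points for the samples. IGKV8 and IGKV19 stand out among shorter CDR3, IGKV4 and IGKV1 vary widely among longer ones, and IGKV17 has no longer clonotype.

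A few single V genes gave mostly shorter CDR3. The genes IGKV19-93, IGKV8-21 and IGKV8-27, put together after their values were seen, held 81 of 213 shorter clonotypes that matched 1 gene (38.0%), 16 of 1950 usual ones (0.821%) and 3 of 123 longer ones (2.44%). All 18 IGKV8-27 clonotypes, the gene with the shortest V end of 21 bases, were shorter, in 5 samples. IGKV8-21, with 23 bases, gave 30 shorter and 3 usual clonotypes in 7 samples. IGKV19-93 has a V end of the common 26 bases and still gave 33 shorter, 13 usual and 3 longer clonotypes. The 3 genes supplied 34.5% to 41.2% of single-gene shorter clonotypes in controls. The values were 20%, 0%, 42.9% and 66.7% across knockouts 1 to 4, where the totals were 10, 10, 7 and 15. IGKV4-80, whose V end has 24 bases, gave 14 shorter and 12 usual clonotypes, and IGKV10-96 gave 22 shorter of 177.

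Longer CDR3 that matched 1 gene, 123 of the 170 matched, were spread over genes that mostly gave 11 residues. The other matched ones fit several genes equally well and are not in these counts. IGKV8-18 and IGKV8-26, with the longest V ends of 31 and 32 bases, gave only longer clonotypes, 3 and 1. IGKV1-110 gave 24 longer of 149 clonotypes (16.1%), IGKV5-48 gave 18 of 86 (20.9%) and IGKV4-55 gave 9 of 39 (23.1%). Of the IGKV1-110 clonotypes 11 of the 24 longer ones came from knockouts, 6 of them from knockout 4. Of the IGKV5-48 ones 17 of 18 came from controls, 9 from control 2. By the V genes the deposited tables list singly, IGKV1-110, IGKV5-48 and IGKV10-96 led among longer clonotypes, with 24, 16 and 7. IGKV19-93, IGKV10-96 and IGKV4-80 led among shorter ones, with 23, 18 and 10. V genes of a family are close copies, so values of single genes are uncertain where their V ends are alike.

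**Figure D3:**
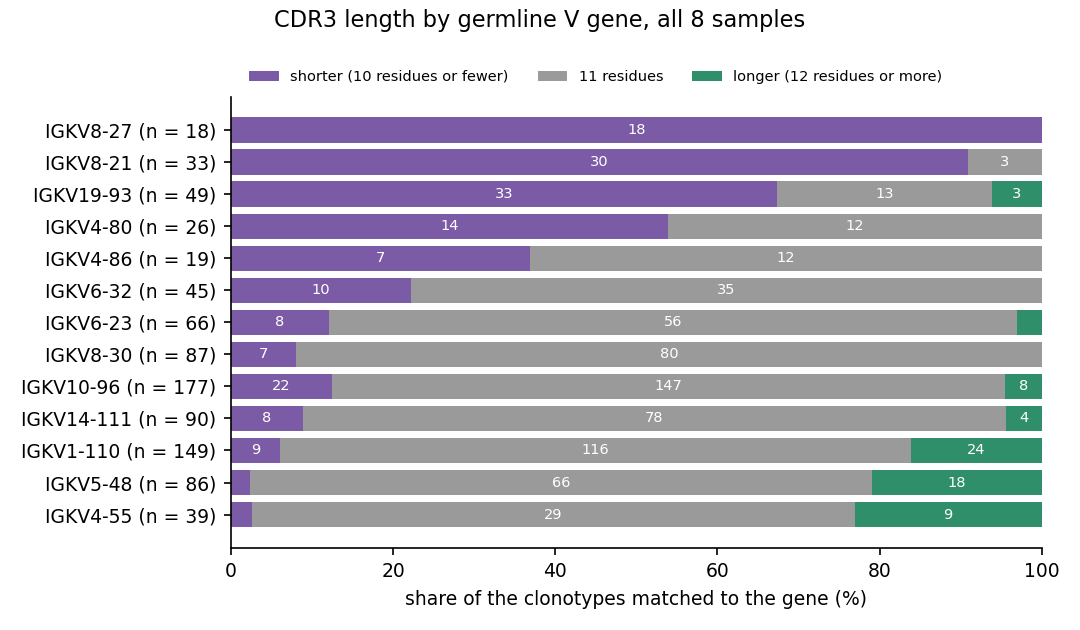
Share (%) of the clonotypes matched to each germline V gene that were shorter, 11 residues or longer, over all 8 samples, for genes with at least 7 shorter or 7 longer clonotypes; white numbers are clonotypes. IGKV8-27, IGKV8-21 and IGKV19-93 are mostly shorter, and IGKV1-110, IGKV5-48 and IGKV4-55 have the widest longer segments.

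No J gene passed the test in either length class, by either way of reading it. As listed in the deposited tables, IGKJ1 was used by 39.8% ± 9.61 of shorter and 28.8% ± 3.37 of 11-residue clonotypes and was higher in 8 of 8 samples (SD, n = 8; exact permutation p = 0.00781, adjusted 0.0742). Read from up to 12 bases after the CDR3, IGKJ1 was used by 33.9% ± 6.48 and 33.6% ± 5.04 (SD, n = 8; exact permutation p = 0.961). The listed J gene equalled the one these bases name in 85.6% of 3000 clonotypes, and in 77.7% of shorter, 86.1% of usual and 89.5% of longer ones. Listed IGKJ1 met bases of IGKJ2 in 147 clonotypes, and listed IGKJ2 met bases of IGKJ1 in 237. IGKJ2 by these bases was used by 41.7% ± 14.6 of longer and 29.4% ± 5.20 of 11-residue clonotypes, higher in 7 of 8 samples (SD, n = 8; exact permutation p = 0.0625, adjusted 0.104). In knockout 4 it was used by 10.3% of longer clonotypes, the lowest of the samples.

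Neither J gene nor V family use within shorter or longer clonotypes differed between control and knockout at the threshold. By the listed genes 0 of 16 passed (0%), none with an unadjusted exact permutation p under 0.05, and by the germline match 0 of 19 passed (0%), with 1 under 0.05. That 1 was IGKV6 among longer clonotypes, at 8.48% ± 6.85 in controls and none in knockouts (SD, n = 4 each; exact permutation p = 0.0286, adjusted 0.494). The knockouts hold 52 shorter and 52 longer clonotypes in all, which limits what could be detected.

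The kept part of the V end followed length, as it must to a degree because the length bounds it, and no test was made. Shorter clonotypes lacked 4.04 bases of the V end on average, usual ones 2.73 and longer ones 0.901. The whole V end was kept in 7.62% of 223 shorter, 18.4% of 2393 usual and 72.0% of 161 longer clonotypes with both ends read. Shorter clonotypes had peaks at 3 bases (28.7%) and 6 bases (20.6%), and usual ones at 3 bases (46.8%). A join with every V and J base kept and none added was found in 44 of 161 longer and 1 of 2393 usual clonotypes. An 11-residue CDR3 can hold one only where the V end and J start total exactly 33 bases. Shorter CDR3 cannot hold one, since even the shortest V end of 21 bases and a J start of 10 exceed their 30 bases. No base lay between the matched V and J parts in 80.7% of shorter, 80.4% of usual and 63.4% of longer joins. A base that differs from germline near the end of a segment can stop the match there. Germline bases beyond it then count as not kept and as lying between, so bases between are not all added ones. In longer joins this share was 60.5% ± 8.34 in controls and 67.2% ± 26.1 in knockouts (SD, n = 4 each; exact permutation p = 0.714, adjusted 0.714).

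**Figure D4:**
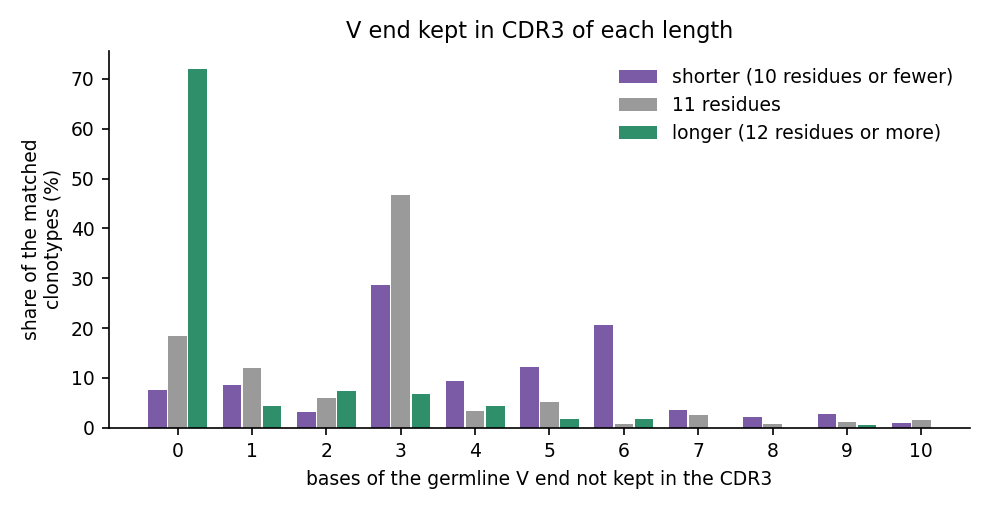
Share of matched clonotypes of each length (%) by the number of V-end bases not kept in the CDR3, over all 8 samples, drawn up to 10 bases. Longer CDR3 peak at 0 bases (72.0%), usual ones at 3 (46.8%), and shorter ones at 3 and 6.

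The residues carried by the loops differed with length in the same descriptive sense. No proline inside the loop was found in 68.6% of shorter, 3.86% of usual and 4.35% of longer clonotypes, and the share ran from 30.8% to 85.7% of shorter clonotypes by sample. With IGKV19-93, IGKV8-21 and IGKV8-27 left out, 54.6% of shorter clonotypes lacked a proline. A pair of adjacent prolines was found in 50% of longer, 10.4% of usual and 0.392% of shorter clonotypes, and in 36.7% to 75.8% of longer clonotypes by sample.

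The V part of members often matched germline exactly. No mismatch was found in the kept part of 73.5% of shorter, 54.1% of usual and 50.3% of longer V ends. Mismatches were counted only within that part, which has fewer bases on average in shorter CDR3 and more in longer ones. The length classes therefore had unequal room for a mismatch. Among shorter clonotypes the share was 71.4% ± 7.97 in controls and 82.0% ± 17.2 in knockouts (SD, n = 4 each; exact permutation p = 0.314, adjusted 0.429). Among longer ones it was 51.4% ± 9.89 and 72.0% ± 34.0 (SD, n = 4 each; exact permutation p = 0.343, adjusted 0.429), and knockout 4 had the lowest value of all 8 samples, 31.0%. The 11-residue clonotypes gave 49.7% ± 4.86 and 74.9% ± 12.3, with no overlap (SD, n = 4 each; exact permutation p = 0.0286, adjusted 0.143).

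Identical members were seldom shared. Of 210 distinct shorter sequences 25 (11.9%) and of 169 longer ones 10 (5.92%) were found in 2 or more samples, against 321 of 2029 usual ones (15.8%). Of the shorter sequences in knockouts, 21.2% of 52 were also found in a control, and 6.51% of the 169 in controls were found in a knockout. For longer sequences these shares were 11.8% of 51 and 4.84% of 124. Among 11-residue sequences they were 44.6% of 435 and 10.9% of 1788.

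The high longer share of knockout 4 came with groups of related sequences. When sequences of 1 length in a sample were linked wherever they differ by 3 bases or fewer, its 33 longer sequences fell into 10 groups, and the largest groups held 17 and 6, together 23. In controls the largest longer group held 4 to 8 of 23 to 43 sequences, 17.4% to 23.3%. In the other knockouts it held 4 of 8, 2 of 7 and 2 of 4, so that its share of 51.5% in knockout 4 was close to the 50% of knockouts 1 and 3, which rest on few sequences. The largest group of knockout 4 had 51 CDR3-spanning reads of 94, and all 17 matched the V end shared by IGKV4-59, IGKV4-68, IGKV4-71 and IGKV4-72. Its 4 best-covered members are printed with the bases that differ from the IGKV4-59 end in capitals.
11 reads: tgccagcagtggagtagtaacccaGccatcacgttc
10 reads: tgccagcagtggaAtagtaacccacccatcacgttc
5 reads, first: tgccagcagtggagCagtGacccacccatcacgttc
5 reads, other: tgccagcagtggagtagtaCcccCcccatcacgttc
Bases after the CDR3 named IGKJ4 in 9 and IGKJ5 in 6 of the 17. The next group held 6 sequences with 25 reads, all matched to IGKV1-110, and its best-covered member was the longer sequence with most reads in any knockout, 16.
16 reads: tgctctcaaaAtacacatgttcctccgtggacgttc
Members differed from the germline V end at 0 to 3 bases in the first group and at 1 or 2 in the other. Of the 17 sequences 9 had a single read, and whether such sequences differ through errors in reads was not tested. Counting sequences linked in steps of 2 bases once, an alternative chosen after the data were seen, left knockout 4 with the highest longer share, 16.7%, against 6.56% to 7.14% in the other knockouts and 9.26% to 12.9% in controls. Knockout 4 also had the most light-chain locus reads of all samples and the highest switched constant share of the knockouts (44.2%), and their part in this result was not tested.

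**Figure D5:**
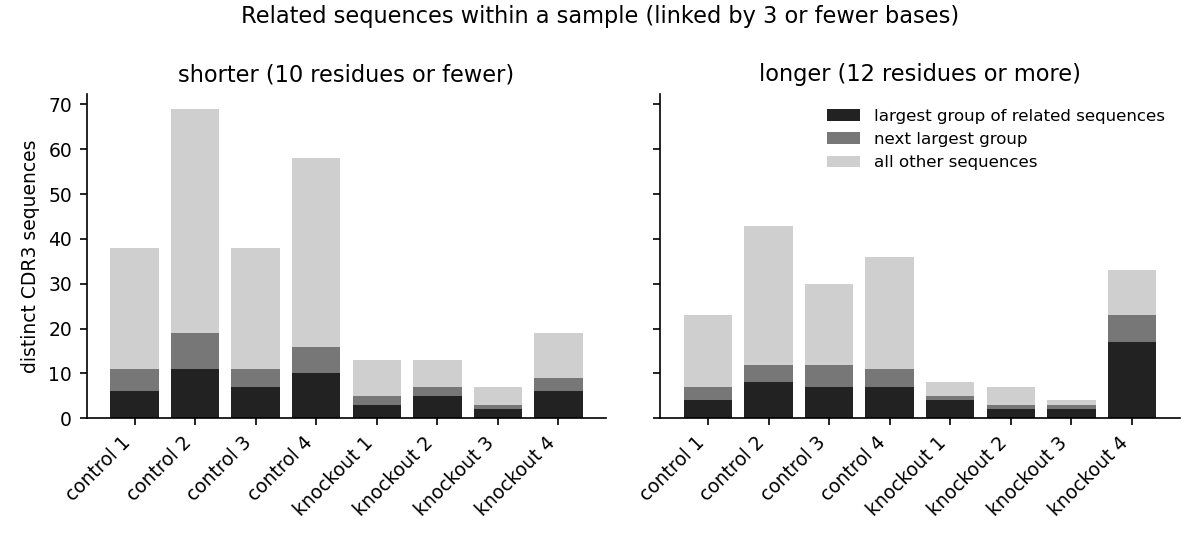
Distinct CDR3 sequences per sample, shorter (left) and longer (right), divided into the largest group of related sequences, the next largest and all others. In knockout 4 the largest longer group holds 17 of 33 sequences, in controls it holds 4 to 8 of 23 to 43, and in knockouts 1 and 3, with few sequences, 4 of 8 and 2 of 4.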

How the data were processed

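Poly-A RNA of 8 sorted pro-B samples, 1 sequencing batch, was read as 75-base single-end reads, per the labels. Reads were aligned with STAR 2.5.1 to mm10, per the submitters' processing notes, and TRUST assembled the repertoire, per the series design text, in a version not given in the sources used here. The authors deposited, per sample, assembled contigs with whole-number read counts and an expression score per clonotype, and read counts per gene segment. The deposited score times the larger of 39 and the CDR3 length in bases was whole within 0.01 for 100% of clonotypes and is called CDR3-spanning reads. Of 3954 light-chain contigs 824 were not used, because their CDR3 was incomplete. Setd2 transcripts and heavy-chain CDR3 were not analysed here.

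Lengths, shares and exact permutation tests were computed in Python 3.11.15 (scipy 1.17.1, pandas 2.3.3, numpy 2.4.6) and tested on simulated data. Groups were compared over 70 arrangements, and lengths by 256 sign flips (smallest p 0.00781). Germline V ends were matched without gaps, at a cost of 3 per mismatch and a score of at least 15. Only kappa V and J genes were matched, so any lambda chains among the members were not told apart. The deposited J call was the lambda gene IGLJ1 for 1 usual clonotype. J genes were read from 6 to 12 bases after the CDR3 with a lead of 2 matches. All J genes and V families with at least 10 shorter or longer clonotypes are named, with families that passed, the 3 leading listed V genes of each class, and the most shared, best-covered, shortest and longest sequences. The members and lists were chosen with earlier results of these data known. Alternatives covered left-out samples, merged sequences, a read minimum, length limits and read measures.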

Additional observations from a re-analysis of the deposited data

Results flagged for a closer look

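Among 26 sets of 4 values searched for a sample far from the others, 2 gave one, where chance alone gives about 1 in 20. The longer share of clonotypes in knockout 4 was 13.3%, far above the 4.46% to 5.56% of the other knockouts. The log2 ratio of reads per longer clonotype to reads per 11-residue clonotype in control 3 was -0.70, below the other controls, and no test was made of either sample.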

How the results depend on the processing

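The lower number of shorter clonotypes in knockouts kept its direction in every alternative run. The log2 difference ran from -2.21 to -1.73 with 1 sample left out, where an exact permutation test of 3 against 4 cannot go below p = 0.0571, and was -0.66 per 1000000 locus reads (exact permutation p = 0.429). On the scale of locus reads knockout 3 lay above every control and the other knockouts below. The labels do not say whether replicate numbers pair the samples, and the values did not settle it. Deviations of same-numbered samples correlated at 0.40, 0.65, -0.45 and 0.10, and 2 of 4 matched their own number best. The replicate block gave -2.0 with an exact permutation p of 0.125, the smallest that 4 pairs allow.

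No share or read ratio passed in any alternative, and several changed sign; the cause was not tested. The difference in shorter share was -1.55 points with at least 2 reads and -2.46 with linked sequences merged. In longer share it was -1.49 when merged, and -0.27 (without knockout 4) to 2.68 with 1 sample left out. The shorter read share ran from -0.916 to 0.858 without 1 sample and was 0.150 with limits of 9 and 13 residues; the longer one ran from -0.269 (without knockout 4) to 2.63. The shorter read ratio was 0.21 with at least 2 reads, 0.37 merged and -0.217 to 0.0986 without 1 sample. The longer ratio was 0.0050, 0.59 and -0.402 to 0.0866, and 0.49 by contig reads.

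The number of families called over both length classes was 3 by the listed V genes, all among longer clonotypes. It was 0 with 1-base neighbours merged and 0 without any 1 sample, where 7 samples raise the smallest p. By germline match the 3 were not called, and 7 others, all among shorter clonotypes, were; without knockout 4 that match called 0. In shorter minus 11-residue shares, in points, IGKJ2 was 5.38 with at least 2 reads, 6.27 by the bases after the CDR3 and -4.78 to 1.76 without 1 sample. By germline match IGKV4 was -5.66, IGKV6 -1.08 and IGKV10 -0.47, and without knockout 4 IGKV4 was -4.85 and IGKV6 -0.032. With 1 sample left out, IGKV4 ran from -0.302 to 3.61, IGKV6 from -1.01 to 2.82 and IGKV8 from -0.039 to 5.44. Among longer shares IGKJ4 was -0.040 by distinct amino-acid sequences and -2.32 to 1.87 without 1 sample. Limits of 9 and 13 residues left samples without members, so families and numbers could not be tested there. Knockouts held 4 to 33 members a class, which limits what could be detected.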
